A study of Mus musculus with 2 samples.

Results

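Bcas3, Tbx2 and Tbx4 are neighbours on mouse chromosome 11, all transcribed in the same direction, and 14 of the 6566 LHX6-enriched intervals of the maxillary arch lay among them. Intervals, regions of enriched fragment density, were chosen by position: 13 were annotated by the authors to Bcas3 or Tbx2, and 1 more had its summit, the point of highest density, within 100 kb of the start of one of the 3 genes. Since the genes were selected on the presence of intervals, their number is a description and not a test. The LHX6 chromatin immunoprecipitation and sequencing (ChIP-seq) library came from maxillary arches, the tissue of the upper jaw and palate, of 47 Wild-type (CD1) mouse embryos at E11.5, with a rabbit antibody against LHX6. The input library came from the same tissue and genotype without antibody. All embryos were pooled, there was 1 library of each kind, and the tissue holds several cell types, so no value carries a replicate error and no interval can be assigned to a cell type.

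LHX6 is a LIM homeodomain transcription factor of the mesenchyme of the first pharyngeal arch, where it acts with its relative LHX8 in palate and tooth development. Tbx2 encodes a T-box transcription factor that mostly represses its targets and is needed for closure of the palate. Tbx4 encodes a T-box activator known for its role in the hindlimb bud and the lung mesenchyme, and Bcas3 encodes a protein linked to the cytoskeleton and to autophagy. Tbx2 and Tbx4 form a gene pair that matches the pair of Tbx3 and Tbx5 on chromosome 5 by an ancient duplication.

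The 14 intervals are numbered here along the chromosome in NCBIM37 (mm9) coordinates. Intervals 1 and 2 lay at the starts of Ppm1d and Bcas3, intervals 3 to 12 in introns of Bcas3, interval 13 at the start of Tbx2, and interval 14 over the body of Tbx2 and beyond its end. No interval was annotated to Tbx4. The sequences shown first are those around the summits of 4 intronic intervals of Bcas3 and of interval 14. Intervals 3 and 8 were the highest in the introns, and interval 7 had a motif nearest to its summit. Interval 12 had most copies of a homeodomain hexamer within 100 bp of its summit, and interval 14 was the longest of the whole library. Capitals mark the hexamers TGATTG, which reads CAATCA when on the minus strand, with its relative TGATTA, which then reads TAATCA, and the E-boxes, either CATCTG, which then reads CAGATG, or the palindrome CAGCTG.
Interval 3, Bcas3 intron 8, chr11:85241340-85241540, plus strand: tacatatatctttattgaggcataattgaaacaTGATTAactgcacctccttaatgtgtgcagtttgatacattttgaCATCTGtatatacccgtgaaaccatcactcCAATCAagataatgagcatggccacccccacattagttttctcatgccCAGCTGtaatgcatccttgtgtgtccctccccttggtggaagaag
Interval 7, Bcas3 intron 24, chr11:85438316-85438516, plus strand: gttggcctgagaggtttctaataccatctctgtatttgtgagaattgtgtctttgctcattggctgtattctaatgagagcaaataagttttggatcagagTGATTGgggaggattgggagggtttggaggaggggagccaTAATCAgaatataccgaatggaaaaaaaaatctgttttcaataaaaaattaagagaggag
Interval 8, Bcas3 intron 24, chr11:85446268-85446468, plus strand: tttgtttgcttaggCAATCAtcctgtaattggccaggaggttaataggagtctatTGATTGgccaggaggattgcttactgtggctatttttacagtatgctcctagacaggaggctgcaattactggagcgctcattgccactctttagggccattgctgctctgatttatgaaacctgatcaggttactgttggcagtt
Interval 12, Bcas3 intron 24, chr11:85510268-85510468, plus strand: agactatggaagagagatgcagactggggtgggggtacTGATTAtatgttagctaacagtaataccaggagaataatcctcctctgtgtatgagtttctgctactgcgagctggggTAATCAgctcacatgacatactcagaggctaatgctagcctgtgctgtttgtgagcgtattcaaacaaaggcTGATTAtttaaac
Interval 14, past the end of Tbx2, chr11:85656988-85657188, plus strand: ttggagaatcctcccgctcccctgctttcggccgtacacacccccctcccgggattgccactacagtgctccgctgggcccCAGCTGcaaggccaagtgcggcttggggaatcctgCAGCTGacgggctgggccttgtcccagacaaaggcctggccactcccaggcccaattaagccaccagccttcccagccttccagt

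Bcas3 is 473 kb long (chromosome 11, 85166669 to 85639560, plus strand), and 10 summits lay inside it, all of them in introns. The height of an interval, given by the authors, is the density of fragments, taken as 150 bp long, at its summit. Exact Poisson 95% intervals are given in parentheses as if a height were a number of fragments, and they cover counting error only. Interval 3 was the highest of the 14, with a height of 59 (44.9 to 76.1), in intron 8 (85240611 to 85242331), 74.8 kb from the Bcas3 start. It ranked 169 of 6566, in the top 2.83%. Interval 4, in intron 14 (85303472 to 85304228), was the lowest, with a height of 13 (6.92 to 22.2) and rank 6421. Thus the highest and the lowest lay beside each other in the front part of the gene, 62.4 kb apart.

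The other 8 intronic summits lay in intron 24, which is 218 kb long and makes up 46.1% of the gene. This gave 3.67 summits per 100 kb in intron 24 and 0.784 per 100 kb in the rest of Bcas3. Of the 27 introns of the longest transcript, 24 held no summit. Interval 5 (85397343 to 85398075) had a height of 22 (13.8 to 33.3), equal to the median of all LHX6 intervals. It reached over the exon before intron 24, with its summit in the intron. The remaining 7, intervals 6 to 12, fell within 83.6 kb.

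In this group of 7, heights ran from 24 to 52. All were above the library's median of 22, as were 47.7% of all LHX6 intervals. Interval 6 (85426288 to 85427255) had a height of 42 (30.3 to 56.8), and interval 7 (85437991 to 85438933) a height of 33 (22.7 to 46.3). Interval 8 (85445913 to 85446866) was the highest of the group at 52 (38.8 to 68.2), rank 259. Neighbouring interval 9 (85452110 to 85452860) reached 46 (33.7 to 61.4). It had the highest mean density of the 14, 18.7, followed by 17.3 in interval 8. The heights of intervals 3, 8 and 9 could not be told apart by these counting intervals.

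Interval 10 (85453440 to 85455067) began 580 bp after the end of interval 9 and had a height of 28 (18.6 to 40.5), with summits 2.02 kb apart. It reached over an exon of a GENCODE Bcas3 transcript without coding sequence, but its summit did not lie in an exon. Interval 11 (85480569 to 85481951) had a height of 31 (21.1 to 44.0), and interval 12 (85509453 to 85510751) a height of 24 (15.4 to 35.7). The intervals on either side of intervals 8 and 9 were thus lower than both, in no steady order. Of all 14, 6 had counting intervals wholly above that of interval 4.

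**Figure D1:**
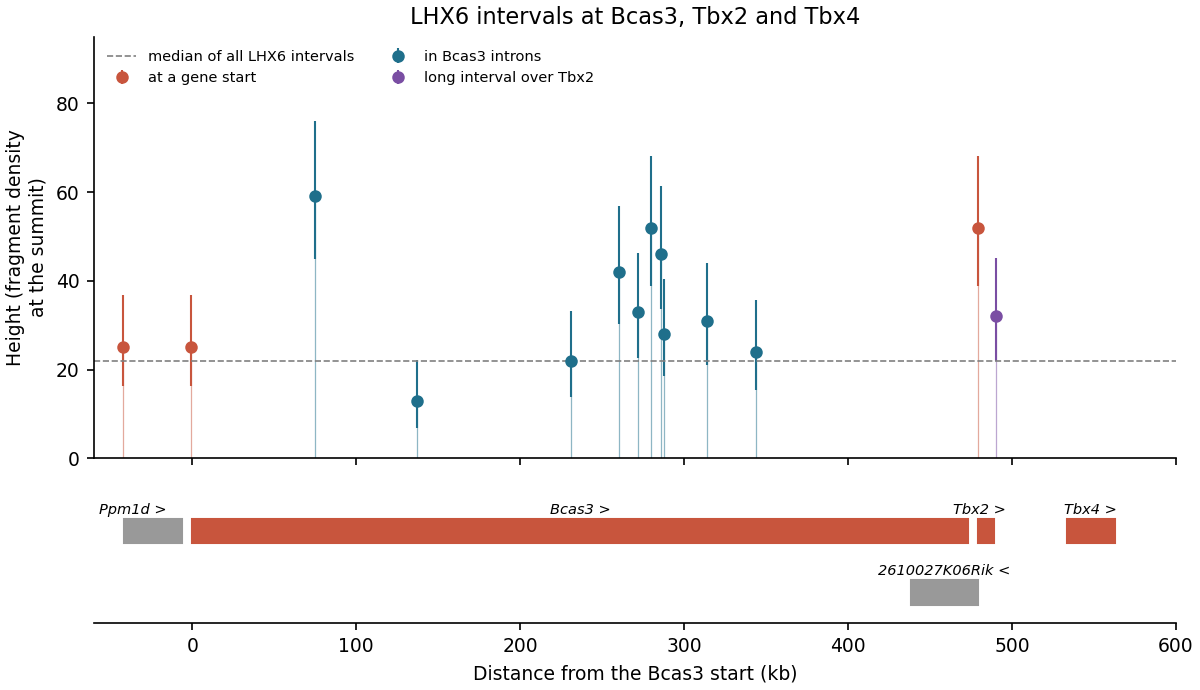
Height of the 14 intervals (y axis, fragment density at the summit) against the distance of the summit from the Bcas3 start (x axis, kb), with exact Poisson 95% intervals as bars and the genes drawn to scale below. Intervals 6 to 12 stand 260 to 344 kb into Bcas3, and no interval lies over Tbx4.

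The 7 clustered summits lay 260 to 344 kb from the start of Bcas3 and 136 to 219 kb from the start of Tbx2. By distance alone they were therefore nearer to Tbx2 than to Bcas3, although the authors' annotation lists Bcas3 and not Tbx2 for them. Intervals 3, 4 and 5 were nearer to the Bcas3 start, at 74.8, 137 and 231 kb. From the Tbx4 start the cluster was 190 to 273 kb away. Past interval 12, no interval was found for 135 kb until the one at the Tbx2 start, a stretch that holds the end of intron 24, the remaining Bcas3 exons and most of 2610027K06Rik, a noncoding gene on the minus strand.

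Along the chromosome, the summits first stood far apart, 41.5, 75.3, 62.4 and 93.9 kb from interval 1 to interval 5. Interval 6 followed after 29.1 kb, and from there the spacing shortened at each step, over 11.6, 7.95 and 6.11 kb, to the 2.02 kb between intervals 9 and 10. It then widened to 26.4 and 29.5 kb and, at Tbx2, to 136 kb, with 10.9 kb between intervals 13 and 14.

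Such spacing was close for this library. The 13 distances between neighbouring summits of the locus had a median of 29.1 kb and ran from 2.02 to 136 kb, against a median of 151 kb over 6546 neighbouring pairs, of which 18.7% were at or under 29.1 kb. Windows of 83.6 kb starting at each summit held 7 or more summits in 48 of 6566 cases (0.731%). With summits within 1 kb of a gene start left out, as none of the 7 is, this was 15 of 4212 (0.356%). These windows overlap each other, and the span was taken from the cluster itself. Since the locus was selected on the presence of intervals, the median spacing is likewise a description and not a test.

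Bcas3 was listed for 13 intervals in all, of which 11 had their summit over 1 kb from any listed gene start. Among 5266 symbols in the authors' annotation, 1 had more intervals and 1 the same number, while 80.4% had a single interval. The 5 symbols nearest in number were Auts2 with 13, Dnm3 with 14, Gpc6 with 11, Dlx1as with 9 and Lrba with 8, the last taken as the nearest to Bcas3 in length among 3 symbols with 8, the other two being Tbx3 and Supt3h. Median heights of the 5 ran from 19 (Auts2) to 26 (Dnm3), against 32 in the Bcas3 introns. Auts2 and Gpc6 are over 1000 kb long, and Dnm3 at 496 kb is close to Bcas3 in length.

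Long genes can hold more intervals, so Bcas3 was set beside all 225 GENCODE protein-coding genes of at least its length. Their median was 1 summit, or 0.111 per 100 kb, and 94 of them (41.8%) had none. Bcas3 held 2.11 per 100 kb, and Dnm3, at 2.82 per 100 kb, was the 1 gene of the 225 with a higher rate. By number, 4 of these genes held more summits: Dnm3 with 14, Auts2 with 12, Gpc6 with 11, and Gm20388, a predicted gene model of 4430 kb, with 37.

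**Figure D2:**
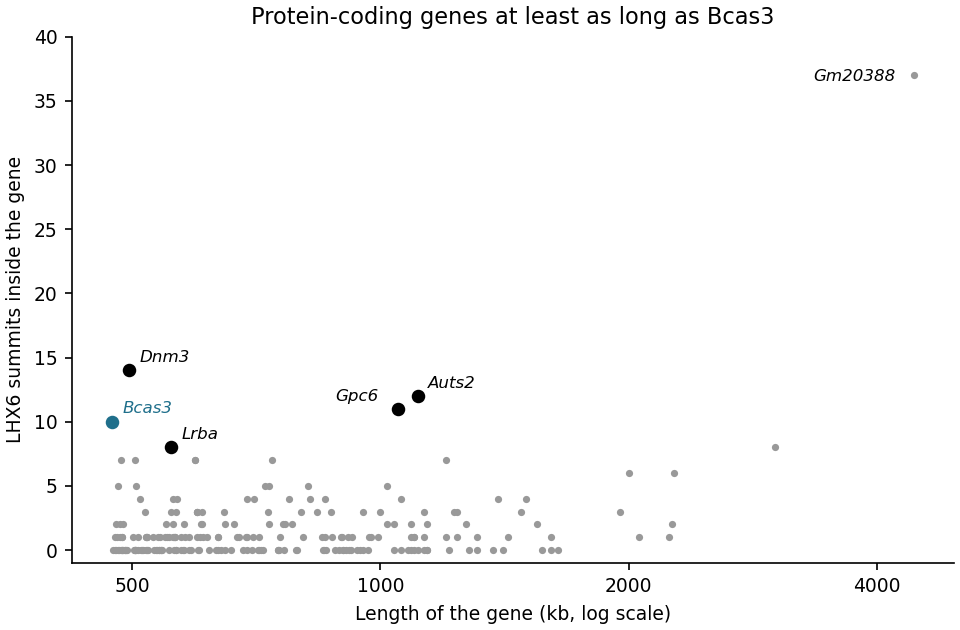
LHX6 summits inside each of the 225 protein-coding genes at least as long as Bcas3 (y axis, number) against gene length (x axis, kb, log scale). Bcas3 lies at the short end with 10 summits, below Dnm3 with 14 and above Lrba with 8.

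The intronic intervals of Bcas3 were longer and higher by their medians than other intervals away from gene starts, with ranges that overlap. Their median length was 960 bp and their median height 32, against 799 bp and 23 in the 4201 other intervals over 1 kb from a listed gene start, called distal here. The ratio of height to mean density had a median of 2.61 in the introns of Bcas3 and 2.25 in the other distal intervals, with ranges of 1.71 to 3.70 and 1.26 to 5.84. A height of at least 50 was reached by 2 of the 10, against 6.45% of other distal intervals and 5.62% of those inside other genes. None of the 10 overlapped a CpG island, against 13.1% of other distal intervals.

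Tbx2 is short, 9.40 kb (chromosome 11, 85646053 to 85655450, plus strand), and was covered almost completely. Interval 13 (85645409 to 85646685) had a height of 52 (38.8 to 68.2), rank 259, and overlapped 1 CpG island. Its summit at 85646208 lay 155 bp inside Tbx2, in the untranslated part of the first exon. The same interval took in the start of 2610027K06Rik, which lies 328 bp before that of Tbx2 and faces away from it. The start of Bcas3 had a height of 25 (16.2 to 36.9) at interval 2 (85165795 to 85166577), 493 bp before the gene, and Ppm1d, a phosphatase gene of the p53 pathway, had the same height of 25 at interval 1 (85124225 to 85125384). The counting interval of interval 13 lay above both, and the 2351 other intervals at gene starts had a median height of 21, with 1.36% reaching 50.

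Interval 14 (85646780 to 85659295) began 95 bp after the end of interval 13 and ran for 12515 bp. It was the longest of the 6566 intervals, 14.6 times the median length of 857 bp and 1.45 times the next, and made up 46.6% of the 26859 bp covered by all 14 intervals. Whether intervals 13 and 14 are 1 enriched stretch divided when the intervals were called cannot be told from the deposited table. Taken as 1, they would leave 13 intervals at the locus, and the 10.9 kb between their summits would not be a spacing of separate intervals. Intervals 13 and 14 together spanned 13.9 kb and covered 99.0% of Tbx2. The height was 32 (21.9 to 45.2), rank 1095, and the mean density over 391 bins was 14.8, rank 538. The ratio of height to mean density was 2.17, against 3.32 in interval 13. The summit of interval 14 lay 1.64 kb past the end of Tbx2, and its end 3.85 kb past it.

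**Figure D3:**
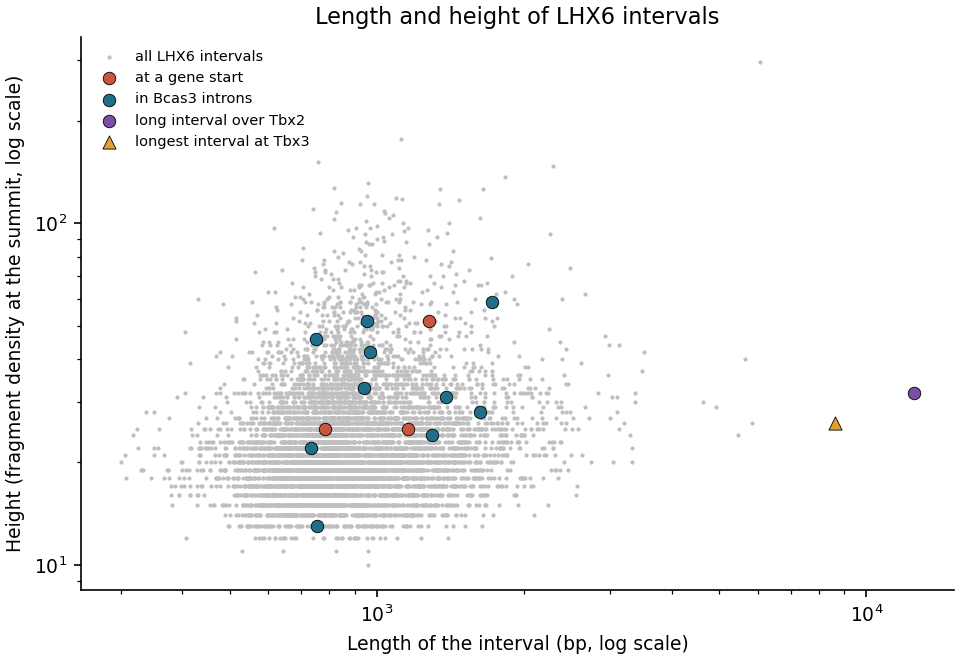
Height (y axis, fragment density at the summit) against length (x axis, bp) of all 6566 LHX6 intervals, both on log scales, with the 14 intervals of the locus in colour. Interval 14, over Tbx2, lies farthest to the right at 12515 bp with a height of 32, followed by the longest interval at Tbx3 with 8613 bp and a height of 26.

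Interval 14 overlapped 6 CpG islands by the authors' annotation, and no other interval overlapped as many. At least 2 were overlapped by 102 intervals (1.55%). In the reference sequence its G and C content was 55.1% and its ratio of observed to expected CpG 0.509, against 42.7% and 0.290 in the 10 intronic intervals together. In steps of 500 bp the CpG ratio rose and fell along the interval. It was 0.883 in the step that starts 500 bp after the Tbx2 start, in which interval 13 ends and interval 14 begins. Within interval 14 it reached 0.786 in the step at 5000 bp and 0.835 in that at 11500 bp. In between it dropped to 0.158 in the step at 2500 bp and 0.189 in that at 7000 bp, so the interval covered CpG-rich and CpG-poor stretches alike. A CpG-rich step at -2500 bp (0.733) lay outside any interval. The part of base composition in the length of interval 14 was not tested.

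**Figure D4:**
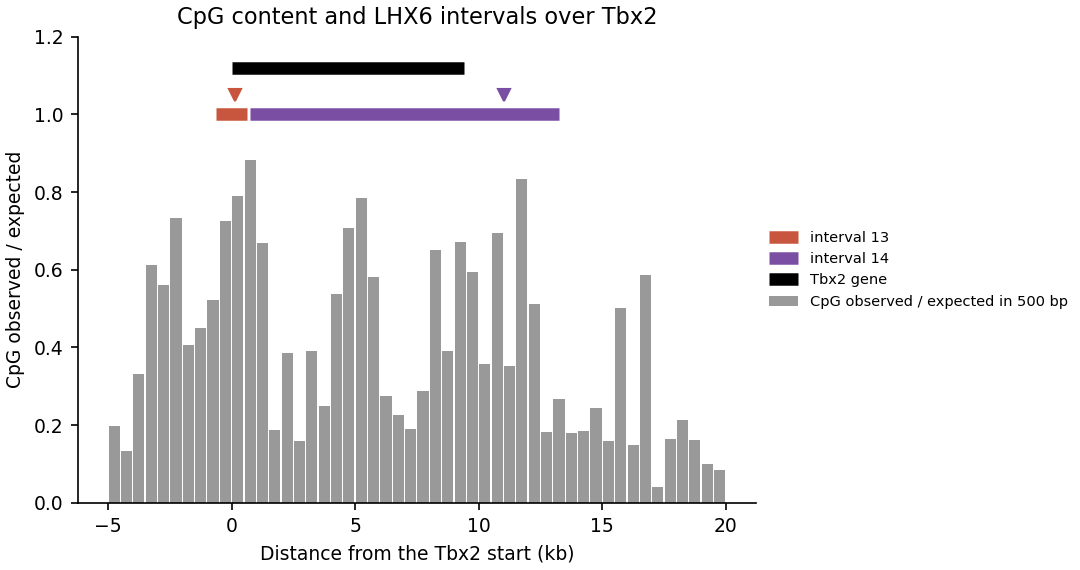
Ratio of observed to expected CpG in steps of 500 bp of the reference sequence (y axis) against distance from the Tbx2 start (x axis, kb), with intervals 13 and 14, their summits (triangles) and the Tbx2 gene drawn above to scale. Interval 14 spans several peaks and troughs of CpG content and ends 13.2 kb after the Tbx2 start.

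Tbx4 (chromosome 11, 85699924 to 85729599, plus strand) had no interval at its start or in its body. The nearest summit was that of interval 14, 42.8 kb before the start, and interval 13 lay 53.7 kb before it. Downstream, the next interval (85841464 to 85842125, height 21) had its summit 142 kb past the Tbx4 start, outside the 100 kb taken here. No interval lay in the 182 kb between interval 14 and that one. Over 22208 protein-coding genes, 47.6% had a summit within 100 kb of the start, 69.9% had none nearer than 42.8 kb, and the median distance was 111 kb. Tbx2 thus had an interval at its start, while the nearest summit to Tbx4 was one that lay beside Tbx2. On the other side of the locus, the nearest interval left out was at the start of Appbp2, 118 kb from Bcas3, with a height of 18.

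In the T-box family, 7 of 17 genes were listed for an interval (41.2%), against 20.5% of protein-coding genes. These were Tbx3 with 8 intervals, Tbx15 with 3, Tbx2, Tbr1 and Tbx6 with 2 each, and Tbx5 and Tbx10 with 1 each. No interval was listed for T, Eomes, Mga, Tbx1, Tbx4, Tbx18, Tbx19, Tbx20, Tbx21 or Tbx22. By height Tbx3 came first at 75 and Tbx2 next at 52, and the highest of the other listed members was 27, at Tbr1. Tbx15, a T-box gene of skeletal and craniofacial mesenchyme, reached 20. The family has only 17 genes, and Tbx2 among them was selected on the presence of intervals. The share of 41.2% is therefore a description, and its difference from 20.5% was not tested.

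The pair of Tbx3 and Tbx5 likewise held a gene listed for more intervals beside one listed for fewer. Within 100 kb of either start there were 10 intervals at Tbx3 and Tbx5, with heights from 14 to 75. At Tbx2 and Tbx4 there were 2, with heights of 52 and 32. The starts lie 164 kb apart in the pair of Tbx3 and Tbx5 and 53.9 kb apart in the other, so the searched stretches differ in length. The longest interval at Tbx3 (chromosome 5, 120117849 to 120126462) was the second longest of the library, at 8.61 kb, with a height of 26, a mean density of 12.1 and 1 CpG island. Tbx5 had 1 interval, of height 15, with its summit 0.672 kb from its start. Tbx3 was listed for 8 intervals and Tbx2 for 2, and how much of the Tbx3 body lay under intervals was not measured.

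Motifs were searched on both strands within 100 bp of each summit. In these windows 3 hexamers of homeodomain type were counted, namely TGATTG, then its relative TGATTA, and then the palindrome TAATTA. The E-boxes CATCTG or else CAGCTG, which basic helix-loop-helix factors bind, were counted in the same windows. Among the 10 intronic intervals of Bcas3, 9 held at least 1 homeodomain hexamer (90.0%, exact Clopper-Pearson 95% interval 55.5 to 99.7), against 62.8% of other distal intervals. The 1 without in this window was interval 4, the lowest. Over its whole length interval 4 held 2 TGATTG, 1 TGATTA and 1 TAATTA, or 5.28 hexamers per kb. The interval of the share contains the value of the other distal intervals, so the shares could not be told apart with 10 intervals. In windows 2 kb to either side of the 10 summits, 8 of 20 (95% interval 19.1 to 63.9%) held such a hexamer, against 20.6% of those around other distal summits. The summits of intervals 9 and 10 lie 2.02 kb apart, so 1 window of each fell on the other's summit and held its hexamer. The 8 of 20 therefore do not all describe sequence away from summits.

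TGATTA was the more common of the hexamers in Bcas3. Within 100 bp of the summit it was found in 7 of the 10 (70.0%, 34.8 to 93.3). The share was 33.0% in other distal intervals and 4.89% at other gene starts. In the same windows TGATTG was found in 5 of the 10 (95% interval 18.7 to 81.3%), against 37.7% of other distal intervals. TAATTA was found in these windows in none of the 14 intervals (upper limit 23.2%), against 12.6% of other distal intervals. Over their whole length, the 10 intronic intervals held 4 copies of TAATTA. With 8 motifs compared on 10 intervals, CCAAT below among them, the difference for TGATTA is given as a description.

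The copies differed in position and neighbourhood. Within 100 bp of their summits the 9 intervals held 15 copies, 6 of TGATTG and 9 of TGATTA. Of these, 8 read on the plus strand and 7 on the minus strand. In these windows intervals 3, 7 and 11 held both hexamers, interval 8 held TGATTG at 2 places and interval 12 TGATTA at 3. In interval 7 the TGATTG copy began 1 bp after the summit, in interval 3 8 bp after it and in interval 5 a TGATTA copy 13 bp after it. In interval 9 the only copy began 85 bp after the summit. Summits were nearly all multiples of 16 bp (97.5%), so these distances are no finer than that. Copies in the intronic intervals whose windows are not printed above, 1 for each interval and with 8 bases to each side, read as follows, with the hexamer in capitals and each turned to its own strand.
Interval 5, site at chr11:85397709-85397714, plus strand: ctggccctTGATTAaatgtaat
Interval 6, site at chr11:85426852-85426857, plus strand: caagtgacTGATTAttcttcta
Interval 9, site at chr11:85452565-85452570, minus strand: ttaataaaTGATTAaaaggcct
Interval 10, site at chr11:85454514-85454519, minus strand: gattcataTGATTGcaggctgg
Interval 11, site at chr11:85480835-85480840, plus strand: attccgagTGATTAcagctctc

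Over the whole length of the 10 intronic intervals, the 3 hexamers together occurred 3.23 times per kb, against 1.24 times per kb in the whole Bcas3 gene. The G and C content was 42.7% in these intervals and 43.2% in the gene. The E-boxes occurred 1.26 times per kb in the intervals and 1.30 in the gene. Within 100 bp of the summits, E-boxes were found in 1 of the 10 intronic intervals (95% interval 0.253 to 44.5%), against 43.3% of other distal intervals. The 1 was interval 3, which held 1 CATCTG and 1 CAGCTG. The 95% interval contains the value of the other distal intervals, so these shares could not be told apart. In windows 2 kb to either side of the 10 summits, 2 of 20 (95% interval 1.23 to 31.7%) held an E-box, against 22.2% around other distal summits. Here too, 1 window each of intervals 9 and 10 fell on the other's summit.

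Interval 14 differed from the introns in its motifs as in its shape. Within 100 bp of its summit it held no homeodomain hexamer and 2 CAGCTG copies, and over its 12.5 kb the hexamers occurred 0.24 times per kb and the E-boxes 1.44 times. The 3 copies of a homeodomain hexamer in it were all TGATTA. Within 100 bp of their summits, intervals 1, 2 and 13, at gene starts, each held 1 TGATTG and no TGATTA. In such windows 22.5% of other intervals at gene starts held TGATTG. Those copies are printed because the base after TGATTG differed between gene starts and distal intervals.
Interval 1, site at chr11:85124645-85124650, plus strand: ttgactccTGATTGgtctgtct
Interval 2, site at chr11:85166220-85166225, plus strand: ggtaaaagTGATTGgcagctgc
Interval 13, site at chr11:85646249-85646254, minus strand: gcccccctTGATTGctgatttt

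TGATTG followed by G reads CCAATCA on the other strand, which contains CCAAT, the box bound by NF-Y. The TGATTG copies of intervals 1 and 2 were followed by G and that of interval 13, at Tbx2, by C. Over the library it followed 70.7% (67.2 to 74.1) of 687 TGATTG copies at other gene starts and 28.5% (26.6 to 30.5) of 2163 copies in other distal intervals. In the Bcas3 introns it followed 3 of 6 copies, at intervals 3, 7 and 8. CCAAT itself, anywhere within 100 bp of the summit on either strand, was found in all 3 intervals at gene starts, interval 13 included, and in 5 of the 10 in Bcas3 introns. It was found in 33.0% of other gene starts and 33.9% of other distal intervals, so it was about as frequent in both. The counts of the next base and of CCAAT were chosen after the sites had been seen. The motif GGTGTGA is part of the T-box binding sequence. Within 100 bp of the summit it was found in none of the 14 intervals and in 1.63% of all LHX6 intervals. TGACAG, a MEIS and TGIF core, was found there among the 14 in interval 13 alone and in 13.7% of all LHX6 intervals.

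**Figure D5:**
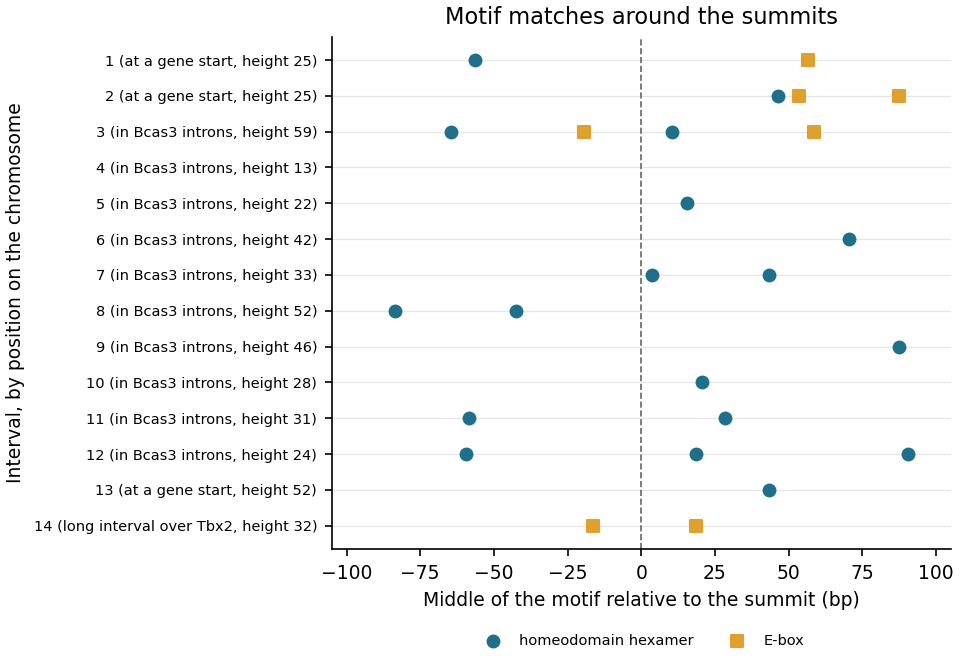
Position of the middle of each motif match relative to the summit (x axis, bp) in the 14 intervals (y axis, in order along the chromosome with their heights). Within 100 bp of the summit, homeodomain hexamers (circles) appear in 12 of the 14, all but intervals 4 and 14. E-boxes (squares) appear there in intervals 1, 2, 3 and 14.

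The input library had 6 intervals, none of which overlapped the 14, and the nearest on chromosome 11 lay 23.2 Mb away. Input density at the locus itself is not given by the deposited table, so no ratio to input could be formed.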

How the data were processed

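An LHX6 ChIP-seq library and an input library were used, 1 of each. BWA alignment to mm9, followed by extension of each read to 150 bp, is stated per the labels' protocols, and the submitters' processing notes also name MACS. The sources used here do not give thresholds, read totals or scaling.

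The deposited table gives per interval the signal, as highest fragment density (height) and mean density over 32 bp bins, and counts of bins, CpG islands and genes, as the authors' values. Genes and distances are the authors' annotation. Locations within genes are from GENCODE M1 on NCBIM37; 74.8% of 5491 deposited distances lay within 200 bp of those from GENCODE starts. The deposited start differed from that of GENCODE by 47 bp for Bcas3 and 64 bp for Tbx2. Of 5266 listed symbols, 4690 matched a GENCODE name, some through RefSeq synonyms.

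Python 3.11.15, pandas 2.3.3 and SciPy 1.17.1 were used. The motif search was tested on simulated data. The members, lists and motifs were chosen with earlier results of these data known. Named genes were the 3 members, protein-coding genes within 100 kb, the T-box family and the 5 symbols nearest to Bcas3 in interval number. Gm11444, a predicted gene between Tbx2 and Tbx4, had no interval listed. With 1 library a group, nothing was tested between groups. Genes outside this rule were named after their values were seen. The sequence of 1 homeodomain hexamer copy in the Bcas3 introns is not reported here.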

Additional observations from a re-analysis of the deposited data

How the results depend on the processing

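With 50 kb or 200 kb in place of 100 kb the locus held 14 or 16 intervals. The median height of the library was reached by 13 of the 14 and by 53.0% of all LHX6 intervals. By nearest start or position inside the gene, 11 intervals went to Bcas3 in place of 13. With mean density in place of height, the median of the 14 stood at percentile 79.0 in place of 81.3. E-boxes were found in 2 of the 14 intervals within 50 bp of the summit and in 8 within 250 bp, against 4 within 100 bp. In the Bcas3 introns they were found in 5 of 10 within 250 bp and in 2 around the middle of the interval, against 1; in the other distal intervals these shares were 65.0% and 40%. Homeodomain hexamers were found in 7 of the 10 intronic intervals within 50 bp of the summit, against 9 within 100 bp. They were found in 10 within 250 bp and in 7 around the middle of the interval. In the other distal intervals the shares were 50.2% within 50 bp, 74.9% within 250 bp and 55.8% around the middle. These windows were added for the introns after the data were seen. T-box genes with a summit within 100 kb of the start numbered 11 of 17, against 7 by the authors' annotation. Of all protein-coding genes, 47.6% had a summit within 100 kb. With intervals at or above the median height the T-box genes numbered 3, and the matching share of protein-coding genes is not given here. Of 26 alternatives, 19 stayed within the limits set for a change and 7 moved, all of which are given above. No paired analysis was possible because each group held 1 library, and no replicate could be left out. The read depth of the libraries is unknown, so weaker intervals at Tbx4 may lie below what could be detected.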
